A study of Drosophila melanogaster with 2 samples.

Results

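The regions described here are the 20 kb bins of chromosome arms 2L, 2R, 3L and 3R in which the maternal and paternal homologs touched each other least, relative to how often each homolog touched itself. A bin was kept when the pooled replicates gave at least 200 cis read pairs with both ends in the bin and at least 3 kb apart, and when inward pairs at 300 to 600 bp, a measure of misassignment, gave a trans-homolog over cis ratio of at most 1%. The least paired bins were chosen by the pooled in-bin ratio of trans-homolog over cis pairs, as the lowest 10% of kept bins. They were 260 of 2600 kept bins, out of 4829 bins on the 4 arms. A cis pair has both ends on the same homolog, and a trans-homolog pair has 1 end on each homolog of the same arm. Since it chose the bins, this ratio is described without a test, and tests were kept to pairs that the choice did not count.

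Hi-C joins pieces of DNA that lie close together in fixed nuclei and reads both ends of each joined piece. It was done on whole Drosophila melanogaster embryos, 2 to 4 h old, that were the F1 of DGRP-057 mothers crossed with DGRP-439 fathers. This was the single condition of the series, with 2 biological replicates. Sequence differences between the parental lines told the homologs apart, so pairs without such a difference on both ends could not be used. Replicate 1 held 24390496 pairs and replicate 2 held 24659056, and the kept bins held 599840 and 686987 in-bin cis pairs, with 28810 and 28365 in-bin trans-homolog pairs. Whole embryos were used, so each value averages over all nuclei, paired and unpaired.

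In flies, homologous chromosomes lie side by side in most somatic nuclei, not only in meiosis. This somatic pairing begins in the early embryo, around the time when the zygotic genome is switched on, and is known for transvection, in which an enhancer on 1 homolog acts on the promoter of the other. Pairing need not be even along a chromosome, and the trans-homolog over cis ratio measures, bin by bin, how much of the local contact is made with the other homolog. Pericentromeric heterochromatin is the compact, repeat-rich chromatin beside the centromere. Bins are given in dm3 coordinates, the build of the deposited pairs. No genome or annotation of this build was used here, so genes in the bins are not named.

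The least paired bins had ratios between 0 and 1.9956%, with a median of 1.43%, against a median of 4.35% in the other 2340 kept bins, whose ratios ran from 2% to 47.6%. These are few pairs: a least paired bin held a median of 4 trans-homolog pairs (0 to 17) beside 321 cis pairs (200 to 1005), whereas the other kept bins had medians of 19 and 420. Summed over the bins, the ratio was 1.48% in replicate 1 and 1.29% in replicate 2 for the least paired bins, against 5.06% and 4.35% for the other kept bins. In 259 of the 260 bins the ratio was at or below that of the median kept bin in both replicates. The choice by the pooled ratio nearly fixes this count, so it does not measure agreement between replicates. A trans-homolog pair was absent from 26 of the bins in replicate 1 and from 35 in replicate 2, against 3 and 4 of the other 2340. These counts enter the pooled ratio, so this contrast too follows largely from the choice.

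**Figure D1:**
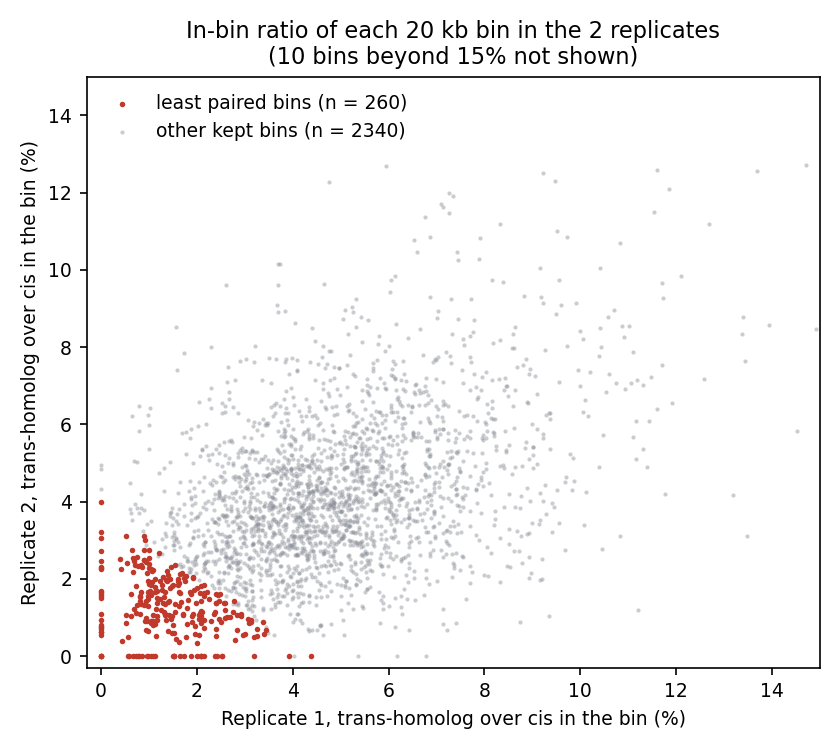
Trans-homolog over cis pairs inside each 20 kb bin (%) in replicate 1 (x axis) and replicate 2 (y axis), 1 point per bin, with the 260 least paired bins in red and the other 2340 kept bins in grey. The red points fill the lower left corner because the pooled ratio chose them, and 10 bins with a ratio over 15% in either replicate are not drawn.

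In 4 bins, all on 2L, no trans-homolog pair was found in either replicate. At chr2L:1220001-1240000 there were 155 cis pairs in replicate 1 and 172 in replicate 2. At chr2L:4060001-4080000 there were 86 and 120, and at chr2L:17020001-17040000 there were 98 and 111. The deepest of these bins, chr2L:22700001-22720000, lies 0.302 Mb from the centromere end of the arm and had 199 and 230 cis pairs. A count of 0 still allows a trans-homolog share of up to 0.699% in that bin and up to 1.46% in the shallowest of the 4 (3 counts of the total), limits that cover counting error only.

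The other 6 of the 10 lowest bins had 1 trans-homolog pair each over both replicates. They were chr3R:15560001-15580000 (383 cis pairs), chr2L:12300001-12320000 (379), chr3R:23180001-23200000 (367), chr3L:6300001-6320000 (357), chr3L:5280001-5300000 (335) and chr2R:1040001-1060000 (300). The order among these 10 bins rests on single pairs and cannot be read as a ranking. At the other end of the set there was no step. The last 5 bins inside the limit, among them chr3L:5480001-5500000 and chr3R:10980001-11000000, had 1.98% to 1.9956%, and the first 5 outside it, among them chr2R:10940001-10960000 and chr2R:10700001-10720000, had 2% to 2.005%.

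To see how far the low values carried over to an independent library, the bins were chosen in 1 replicate alone, with at least 100 cis pairs. They were read in the other where it also had at least 100 cis pairs. This left 243 of 247 bins chosen in replicate 1 and 215 of 270 chosen in replicate 2, and the values below are for these. Bins chosen in replicate 1 had a ratio of 1.16% there and 2.18% in replicate 2, where the other bins had 4.30%. Bins chosen in replicate 2 had 0.965% there and 2.55% in replicate 1, against 4.96% in the other bins. The chosen bins thus kept 0.511 ± 0.0047 of the ratio of other bins (mean ± SD of the 2 directions), although they moved back toward the rest. Of the 243 bins chosen in replicate 1 and read in replicate 2, 92 (37.9%) fell again in the lowest 10% there, a place held by 10% of all bins read. Of the same 243, 210 (86.4%) lay below its median, against 49.5%. Of the 215 bins chosen in replicate 2 and read in replicate 1, 87 (40.5%) fell in the lowest 10% there (9.98% of all bins read) and 182 (84.7%) below its median (49.8%). Across the 2600 kept bins, Spearman's rho between the replicates was 0.476, as a description over bins that share both libraries.

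**Figure D2:**
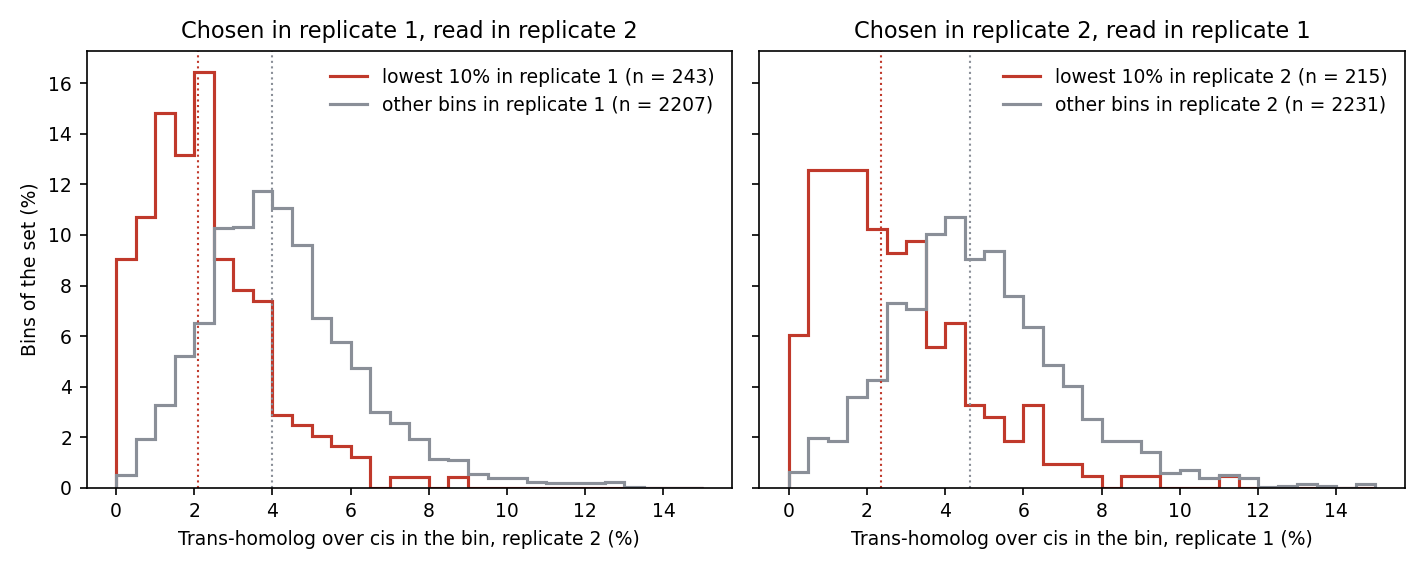
Distribution of the in-bin trans-homolog over cis ratio (%, x axis) in the replicate that was not used for choosing, as the percentage of bins in each set (y axis), for bins in the lowest 10% of the choosing replicate (red) and the other bins (grey). Dotted lines mark the medians, 2.10% against 4.00% in replicate 2 (left) and 2.37% against 4.64% in replicate 1 (right), and the distributions overlap.

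Pairs that the choice had not counted were also low in trans-homolog contacts, and up to 1 Mb the shortfall shrank with the distance of the partner. Same-strand pairs inside the bin at 1 to 3 kb, which leave out most unligated fragments, gave 1.36% and 1.20% in the least paired bins, against 3.63% and 3.08% in the other kept bins (replicates 1 and 2 in this order here and below). For partners 3 to 20 kb away across the edge of the bin the ratios were 3.39% and 2.90%, against 5.53% and 4.84%. The least paired bins stood at 0.606 ± 0.010 of the other kept bins there (mean ± SD, n = 2). This quotient was 0.744 ± 0.032 at 20 to 50 kb, 0.849 ± 0.026 at 50 to 100 kb, 0.942 ± 0.023 at 100 kb to 1 Mb and 0.915 ± 0.00087 at 1 to 10 Mb, where it lay below that of the previous class in both replicates. At every one of these distances both replicates lay below 1. With 2 replicates of 1 condition, these sums were not tested across samples.

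**Figure D3:**
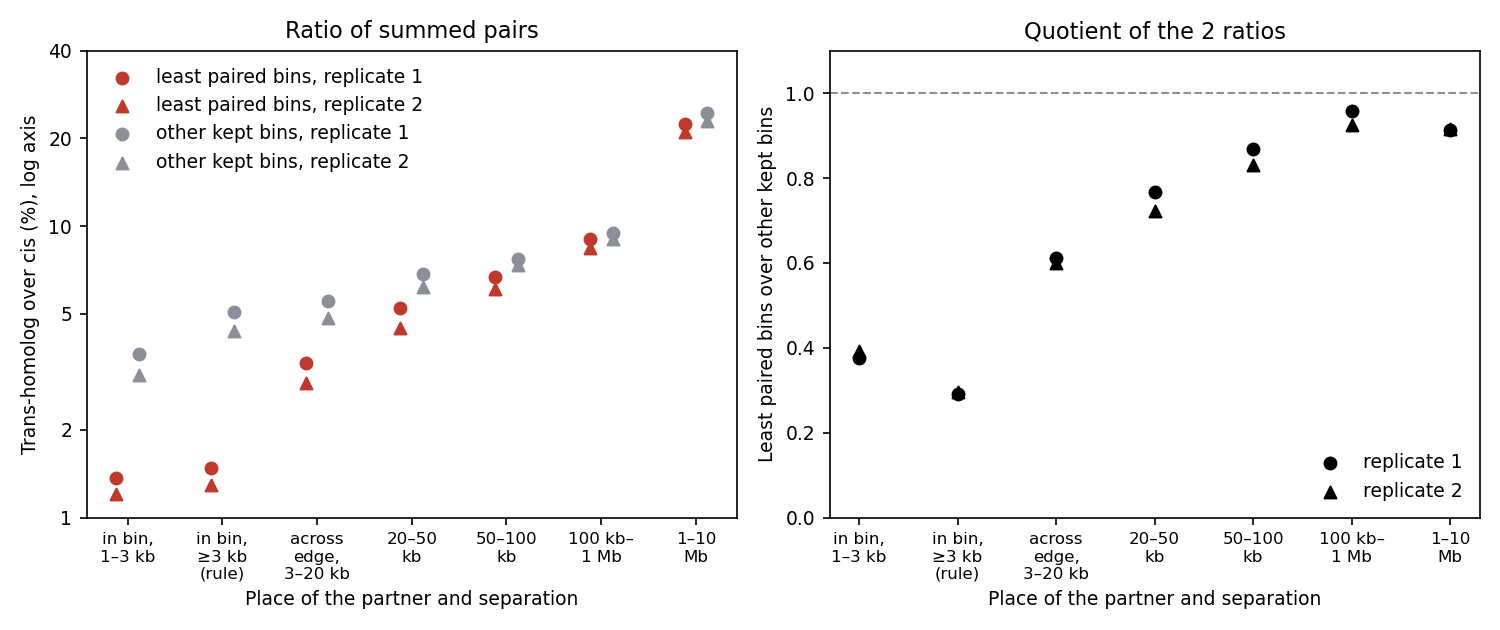
Left, trans-homolog over cis pairs (%, log axis) by place and separation of the partner, in the least paired bins (red) and the other kept bins (grey), with replicate 1 as circles and replicate 2 as triangles. Right, the quotient of the 2 ratios, which runs from 0.375 and 0.391 at 1 to 3 kb in the bin to 0.958 and 0.926 at 100 kb to 1 Mb; the dashed line marks 1, and the class marked "rule" chose the bins.

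Single bins were tested with limma, over all 2600 kept bins, on the log2 trans-homolog over cis ratio of each replicate relative to the median kept bin (two-sided, Benjamini-Hochberg adjusted p under 0.05). The p-values and standard errors (SE) rest on the spread between these 2 libraries over bins of like counts. The difference between the 2 values of a single bin had no weight of its own in them. For partners 3 to 20 kb away across the edge, 71 of 260 least paired bins (27.3%) were called lower, where 5.35% of all kept bins were, and 2 were called higher, where 11% were. Their median log2 ratio was -0.68, against 0.04 in the other kept bins. For partners 20 to 100 kb away, 42 (16.2%) were called lower, where 5.23% of kept bins were, and 3 were called higher, where 11.6% were, with median log2 ratios of -0.23 and 0.01. The ratio lay below that of the median kept bin in both replicates in 190 bins (73.1%) across the edge, against 34.5% of kept bins, and in 160 (61.5%) at 20 to 100 kb, against 34.4%. Most of the least paired bins were thus not called different from the median kept bin outside the bin.

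The number of calls moved with the settings. When only pairs whose ends both had a mapping quality of 30 or more were counted, limma called 0 least paired bins lower across the edge (29 at an unadjusted p under 0.05), where 0.0385% of all kept bins were called, and 8 at 20 to 100 kb, where 0.462% were, although the same bins still stood at 0.595 and 0.596 of the other kept bins across the edge in these pairs. Without the trend of the spread on counts, 121 were called lower across the edge, where 9.65% of all kept bins were. When at least 20 trans-homolog pairs were required there, 19 of 102 were, where 3.8% of the 2055 bins tested were.

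Of the 260 bins, 30 were called lower in both fits (11.5%), where 1.54% of all kept bins were. The 5 lowest adjusted p values at 20 to 100 kb belonged to 4 bins near each other on 3L and 1 on 2R. A pair between 2 bins counts for both, so the values of the 4 bins on 3L are not independent. At chr3L:11300001-11320000 there were 27 trans-homolog and 996 cis pairs at 20 to 100 kb in replicate 1, and 22 and 1255 in replicate 2. Its log2 ratio was -1.56 ± 0.22 (SE) relative to the median kept bin (limma adjusted p = 4.89e-11). Inside this bin there had been 2 trans-homolog and 246 cis pairs in replicate 1 and 4 and 263 in replicate 2. Of the other 3 bins on 3L, chr3L:11340001-11360000 had a log2 ratio of -1.32 ± 0.21 (adjusted p = 1.46e-08), chr3L:11280001-11300000 had -1.73 ± 0.29 (adjusted p = 1.18e-07) and chr3L:11420001-11440000 had -1.06 ± 0.19 (adjusted p = 3.63e-07). The last of these was not called lower across its edge (adjusted p = 0.0771), and the other 4 of the 5 were.

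The fifth was chr2R:1060001-1080000, 1.07 Mb from the centromere end, with 13 trans-homolog and 653 cis pairs at 20 to 100 kb in replicate 1 and 11 and 726 in replicate 2. Its log2 ratio was -1.86 ± 0.33 (limma adjusted p = 4.87e-07). Across its edge it had 3 trans-homolog pairs in each replicate, beside 363 and 461 cis pairs, a log2 ratio of -2.52 ± 0.51 (adjusted p = 3.42e-05). Both replicates were low in each of these 5 bins, and at 20 to 100 kb replicate 2 was lower than replicate 1 in all of them.

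A few least paired bins had the opposite pattern in some of the pairs outside the bin. At chr2L:22420001-22440000, 0.582 Mb from the centromere end, only 2 and 1 trans-homolog pairs lay in the bin, yet at 20 to 100 kb there were 28 trans-homolog to 209 cis pairs (13.4%) in replicate 1 and 29 to 231 (12.6%) in replicate 2. Its log2 ratio was 1.00 ± 0.20 (limma adjusted p = 1.28e-05). Across its edge this bin was not high, with 4 trans-homolog to 82 cis pairs in replicate 1 and 1 to 118 in replicate 2. Its log2 ratio there was -0.90 and was not called. The other bins called higher at 20 to 100 kb were chr3R:27180001-27200000, with a log2 ratio of 0.55 ± 0.14 (adjusted p = 0.0018), and chr2L:3200001-3220000, with 0.43 ± 0.16 (adjusted p = 0.0424). The bin on 3R was also called higher across its edge, with 19 trans-homolog to 217 cis pairs and 17 to 250 (log2 ratio 0.69 ± 0.25, adjusted p = 0.036), as was chr2R:3000001-3020000 (1.01 ± 0.23, adjusted p = 0.000316). In these 4 bins the low trans-homolog contact inside the bin was not shared by every class of pairs outside it.

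The least paired bins were spread over all 4 arms, with 72 of 657 kept bins on 2L, 55 of 607 on 2R, 74 of 674 on 3L and 59 of 662 on 3R. Only 54 of the 399 bins within 2 Mb of the centromere end were kept, against 2546 of 4430 elsewhere, so most of that stretch was not measured. Among kept bins, they were more frequent near the centromere end, with 21 of 54 within 2 Mb (38.9%), against 239 of 2546 elsewhere (9.39%). Most of these 21 lay on 2R, with 15 of 24 kept bins, and 6 of 30 lay on 2L. On 3L and 3R no bin within 2 Mb of the centromere end was kept, so nothing can be said of them. Within 1 Mb of the telomere end 1 of 111 kept bins was a least paired bin (0.901%). Position was not used by the rule, but these shares come from the pooled counts and were not tested.

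Near the centromere end the least paired bins also lay further below the other kept bins of that stretch in the pairs outside the bin, in sums and within each arm. For partners 3 to 20 kb away across the edge, the 21 pericentromeric least paired bins had ratios of 1.38% and 1.75%, against 6.43% and 5.55% in the 33 other kept bins within 2 Mb of a centromere end. At 20 to 100 kb they had 4.23% and 3.82%, against 10.9% and 9.46%. These sums mix the arms, since 15 of the 21 lie on 2R and 24 of the 33 on 2L. On 2R alone the ratios across the edge were 1.09% and 1.60% in the 15 least paired bins, against 4.54% and 5.14% in the 9 others, and at 20 to 100 kb they were 3.53% and 3.23%, against 5.94% and 5.88%. On 2L the 6 least paired bins had 2.36% and 2.20% across the edge, against 7.19% and 5.73% in the 24 others, and 6.74% and 5.92% at 20 to 100 kb, against 12.6% and 10.8%. The 239 least paired bins elsewhere had 3.53% and 2.98% across the edge, against 5.53% and 4.84% in the other kept bins there, and 5.97% and 5.23% at 20 to 100 kb, against 7.12% and 6.58%. The 6 bins on 2L thus lay below these 239 across the edge but above them at 20 to 100 kb. At that distance the 24 others on 2L were high. Across the edge limma called 14 of the 21 lower, where 25.9% of all kept bins near the centromere end were, and 57 of the 239, where 4.91% of all kept bins elsewhere were. At 20 to 100 kb it called 12 of the 21 lower (22.2% of all kept bins there) and 30 of the 239 (4.87%).

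Among kept bins 20 kb from a least paired bin 33.1% were least paired themselves, and this share was 30.0% at 40 kb, 23.8% at 60 kb and 13.9% at 200 kb, against 10% of all kept bins. Neighbours that were not least paired had an in-bin ratio of 3.76% ± 0.39 at 20 kb and 4.14% ± 0.58 at 200 kb (SD, n = 2). This SD holds the offset between the replicates, since replicate 1 was higher at both distances. Within each replicate the ratio was higher at 200 kb, with 4.03% and 4.56% in replicate 1 and 3.48% and 3.73% in replicate 2. The rise was not steady, since the mean was 4.61% at 160 kb. The 260 bins formed 211 runs of adjacent bins. Of these, 176 were single bins, 24 had 2 bins, 8 had 3 and 3 had 4. Of the 520 sides of least paired bins, 241 bordered a bin that was not kept, where a run ends.

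The longest run with the lowest ratio was chr2R:1020001-1100000, with 6 trans-homolog to 686 cis pairs in replicate 1 and 7 to 815 in replicate 2, a pooled ratio of 0.866%. Summed over its 4 bins, pairs across bin edges at 3 to 20 kb gave 0.757% and 0.629%, and pairs at 20 to 100 kb gave 2.34% and 1.89%. The next runs were chr2L:11600001-11680000 (23 to 1674 pairs over both replicates, 1.37%), chr3L:4720001-4800000 (16 to 1096, 1.46%), chr3L:4860001-4920000 (11 to 1147, 0.959%) and chr2L:14420001-14480000 (15 to 1106, 1.36%). A pair between 2 bins of a run counts for both.

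Counted in windows of 10 bins, 6 windows that did not overlap held the most least paired bins, and were picked for that after the values were seen. Window 1, chr3L:4720001-4920000, held 7 among 8 kept bins. Window 2, chr2R:960001-1160000, held 6 among 6 kept bins. All 6 were called lower in both limma fits, where 1.54% of all kept bins were. They had 14 trans-homolog to 1727 cis pairs across edges in replicate 1 (0.811%) and 17 to 2065 in replicate 2 (0.823%). The window was not low throughout. The bins on either side of its run chr2R:1020001-1100000 had under 200 cis pairs and were not kept. Over both replicates the left one had 30 trans-homolog to 193 cis pairs (15.5%) and the right one 0 to 184. Windows 3 to 6 held 5 among 6 kept bins each, at chr2L:11540001-11740000, chr2R:1220001-1420000, chr3L:10660001-10860000 and chr3L:11260001-11460000. In window 5 all 5 least paired bins were called lower at 20 to 100 kb, where 5.23% of all kept bins were. Across the edge 4 of them were, where 5.35% of all kept bins were. The 1 other kept bin there had an in-bin ratio of 5.68%. Window 6 holds the 4 bins on 3L named above, and its 5 least paired bins had 152 trans-homolog to 4198 cis pairs at 20 to 100 kb in replicate 1 (3.62%) and 92 to 4903 in replicate 2 (1.88%). At 20 to 100 kb 4 of 5 were called lower in window 4 and all 5 in window 6, and across the edge all 5 and 4. In contrast, only 2 of 7 in window 1 and 2 of 5 in window 3 were called lower, at either distance. A pair between 2 bins of a window counts for both, so the calls within a window are not independent.

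**Figure D4:**
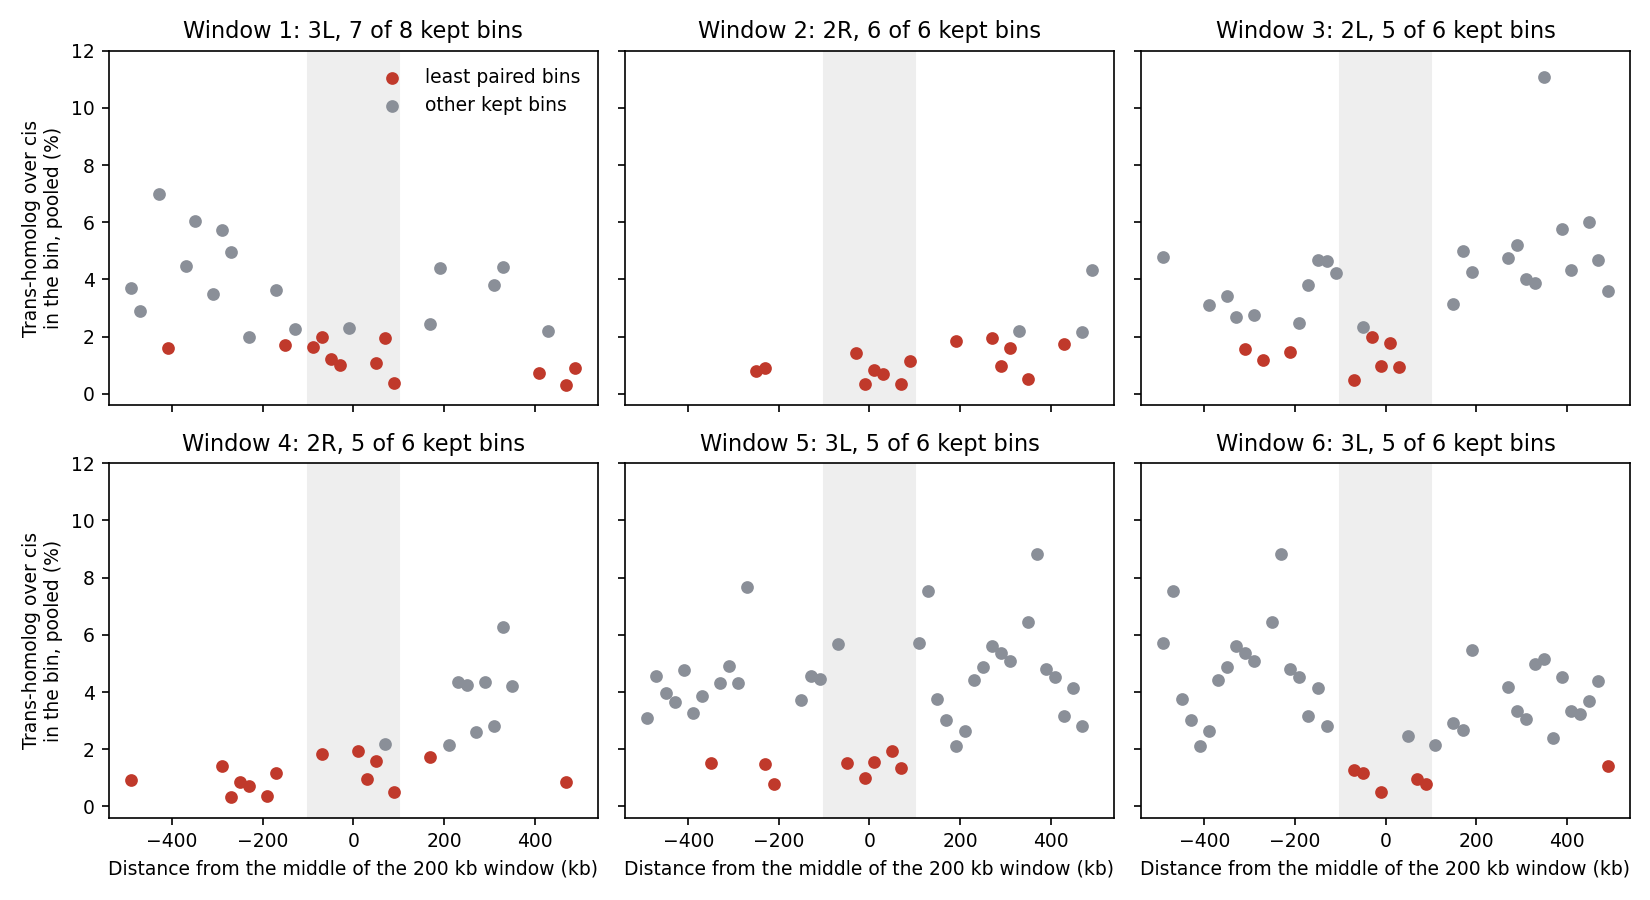
Pooled in-bin trans-homolog over cis ratio (%, y axis) of each kept bin within 500 kb of the middle of the 6 windows (x axis, distance in kb), with the least paired bins in red, the other kept bins in grey and the 200 kb window shaded. In windows 5 and 6 on 3L low bins stand between stretches of higher ones. Windows 2 and 4 on 2R lie near each other, and low kept bins go on beyond the window, with gaps where bins were not kept. Not drawn is 1 bin above 12%.

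Fluorescence in situ hybridisation marks a locus on both homologs under the microscope. Over 6 targets that the study probed with Oligopaints, pools of labelled oligonucleotides, among them the Hox gene cluster BX-C, least paired bins were 0 of 13 kept bins at BX-C, 1 of 38 at 2R16, 0 of 10 at 3R7, 4 of 25 at 3R19, 1 of 31 at 69C and 0 of 26 at 28B. Only 3R19 exceeded the 10% that all kept bins give, on a count of 4.

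Cis contacts differed too. The least paired bins had fewer in-bin cis pairs, with medians of 146.5 and 174 per replicate against 194.5 and 226 in the other kept bins, and in-bin cis pairs are the denominator of the ratio that chose them. Of the cis read ends in a bin, 84.5% and 84.4% had their partner outside the bin, against 80.2% and 80.1%. Their cis contacts also passed more freely over the middle of the bin. The log2 of cis pairs across the middle over cis pairs on either side, within 40 kb and without the pairs inside the bin, had medians of -1.05 and -1.04 in the least paired bins and -1.57 and -1.59 in the other kept bins. The difference of medians was 0.53 ± 0.018 (SD, n = 2). This SD is between the 2 libraries over the same bins and does not measure the spread between bins. Single bins overlapped, with quartiles of -1.27 and -0.88 in replicate 1, against -2.01 and -1.17. A higher value stands for weaker local insulation in cis, the drop in contacts that marks boundaries of contact domains. Near the centromere end these medians were closer, at -1.24 and -1.35 against -1.36 and -1.42. In-bin cis pairs went the other way there, with medians of 160 and 176 against 139 and 163. Read ends whose partner lies on another arm, chromosome or sequence outside the arms had medians of 17.3% and 17.9% of cis read ends, against 18.6% and 19.9%. They include pairs between the 2 arms of 1 chromosome, so they are not all contacts between different chromosomes. Within 2 Mb of the centromere end this order was turned round, with 22.9% and 23.4% in the least paired bins and 20.9% and 22.9% in the other kept bins there, which lie mostly on 2L.

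When all kept bins were divided into 10 equal classes by in-bin ratio, trans-homolog contact across the edge and at 20 to 100 kb was lowest in the lowest class and highest in the highest. Across the edge the ratio was 3.39% and 2.90% in the lowest class, 4.19% and 3.61% in the next and 7.76% and 6.85% in the highest. At 20 to 100 kb these values were 5.86% and 5.15%, 6.42% and 5.89%, and 9.09% and 8.51%. Median insulation values fell from class to class up to the eighth, where they were -1.72 and -1.75, and were -1.73 and -1.77 in the highest class. At 100 kb to 1 Mb the lowest class did not have the lowest ratio, with 9.05% and 8.39% against 8.69% and 8.24% in the next.

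**Figure D5:**
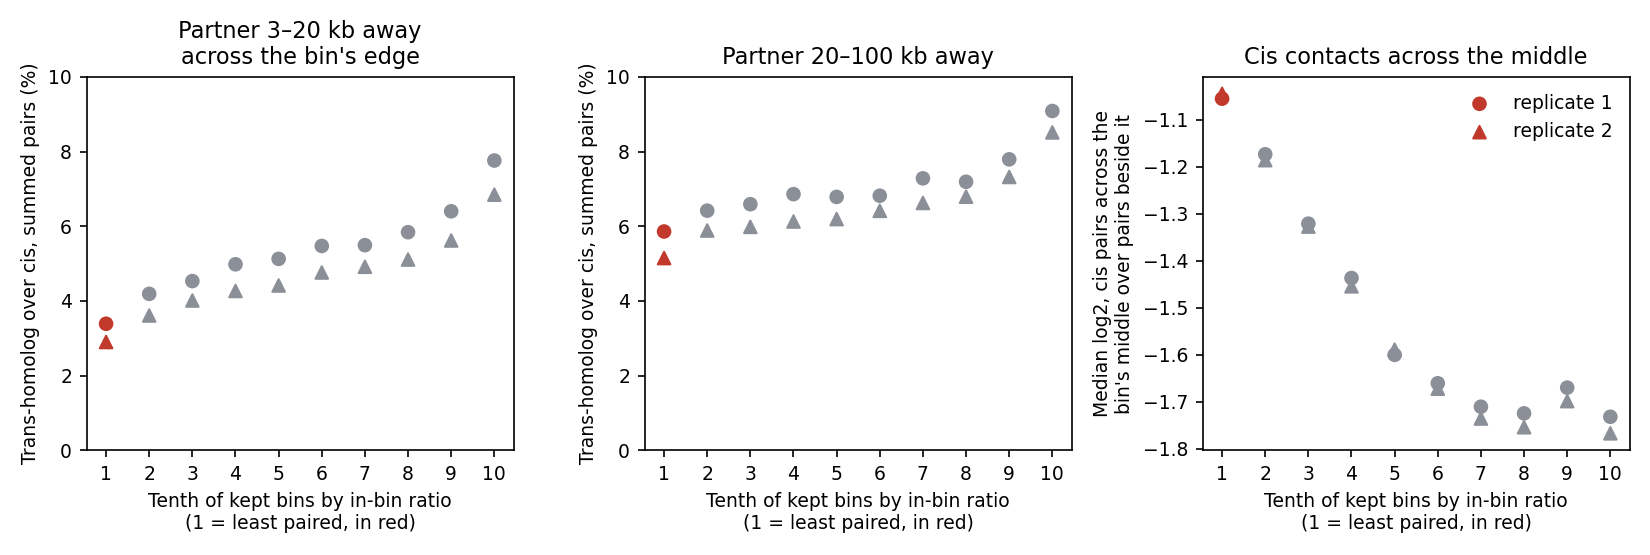
Kept bins in 10 classes of 260 by in-bin ratio (x axis, 1 is the least paired class, in red), with replicate 1 as circles and replicate 2 as triangles. Left and middle, summed trans-homolog over cis pairs (%) across the bin's edge at 3 to 20 kb and at 20 to 100 kb; right, median log2 of cis pairs across the bin's middle over pairs beside it, which is highest in the least paired class.

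Measures of homolog assignment were close to each other in both sets. Inward pairs at 300 to 600 bp are mostly unligated fragments, which cannot join 2 homologs, so trans-homolog over cis among them estimates misassignment. It was 0.156% and 0.162% in the least paired bins, against 0.163% and 0.163% in the other kept bins. At this rate, misassigned cis pairs would make up 11.6% of the in-bin trans-homolog pairs of the least paired bins and 3.48% of those of the other kept bins. Maternal read ends had medians of 50.8% and 51.1% in the least paired bins, against 50.7% and 51.1%. Among pairs whose ends both had a mapping quality of 30 or more, the in-bin ratio was 1.40% and 1.15%, against 4.81% and 4.19%. These pairs are a part of those that chose the bins, so this contrast follows largely from the choice and is no separate check.

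Coverage did move with the choice. In 4 classes by cis pairs, bins of the lowest class (200 to 287) were least paired in 106 of 648 cases and those of the highest class (617 to 2546) in 17 of 651. Its part in the choice was not tested. The quotient across the edge was 0.658 and 0.637 in the lowest class and 0.594 and 0.559 in the highest.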

How the data were processed

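Trimmed reads were aligned by the authors with BWA 0.7.15 to a dm3-based diploid genome of the F1, and they removed duplicates and kept pairs with each end unique to 1 homolog. The deposited files list both positions and strands of each pair, with mapping quality as a score per end, not normalized. Replicates were not pooled in the files. Here pairs were counted per bin in each replicate as listed. limma 3.58.1 (R 4.3.3) was fitted to log2((trans-homolog + 0.5)/(cis + 0.5)), centred on the median kept bin, with eBayes and a trend on counts. The prior degrees of freedom were infinite, so each bin took the spread of bins of like counts. Python 3.11.15 and numpy 2.4.6 were used, and the steps were tested on simulated data. The fit across the bin's edge was added after seeing the data. Members and lists were chosen with earlier results of these data known. Bins named were the 10 lowest, the 5 longest runs, 5 on either side of the limit, the 5 with the lowest adjusted p at 20 to 100 kb and those called higher there. Other bins named were chosen after their values were seen.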

Additional observations from a re-analysis of the deposited data

How the results depend on the processing

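The quotients of the least paired bins over other kept bins stayed below 1 under every alternative run. No paired analysis was possible because there was 1 group. With 2 replicates, 1 SD is a narrow measure, and many values moved by more than that. Leaving out a replicate gives no reading in the other, so that result has no such value.

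With a mapping quality of at least 30, 48 bins were chosen, of which 13 were also least paired as reported. The quotients were 0.609 in the replicate not used for choosing, 0.679 across the edge, 0.847 at 20 to 100 kb and 0.901 at 100 kb to 1 Mb. With that quality and a minimum of 50 cis pairs (added after seeing the data), they were 0.671, 0.688, 0.843 and 0.903, and 104 of 213 bins were also least paired as reported. With same-strand pairs only, 130 bins were chosen, with 0.595, 0.690 and 0.858 for the first 3 quotients. A minimum of 400 cis pairs gave 131 bins and 0.562, 0.626, 0.831 and 0.918. A separation of at least 5 kb gave 0.553, 0.638 and, at 100 kb to 1 Mb, 0.916. Bins of 10 kb gave 0.637, 0.694 and 0.876, and bins of 40 kb gave 0.563 across the edge. The lowest 5% (130 bins) gave 0.468 and 0.534, and leaving out bins within 2 Mb of the centromere end gave 0.534 and 0.636. In the replicate not used for choosing, the quotient was 0.496 with a minimum of 100 cis pairs, 0.561 with bins shifted by 10 kb, 0.506 without the misassignment limit and 0.483 with expected misassigned pairs subtracted.

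Without a replicate, 247 to 270 bins were chosen, and the quotients were 0.654 to 0.658 across the edge, 0.805 to 0.836 at 20 to 100 kb and 0.925 to 0.943 at 100 kb to 1 Mb.

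Bins called lower by limma at 20 to 100 kb numbered 8 with a mapping quality of at least 30 (0.462% of all bins tested were called), and 29 to 50 under the other alternatives (3% to 7.46%). Across the edge, 0 were called with that quality (0.0385%), 19 with at least 20 trans-homolog pairs (3.8%) and 121 without trend (9.65%), and 49 to 76 otherwise (3.12% to 6.27%). These settings change the number of pairs, of bins tested or the spread. Depth limits single bins: with a median of 4 trans-homolog pairs, the order of bins is not resolved.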
